A study of Mus musculus with 6 samples.

Results

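A set of 9 genes downstream of the circadian oscillator was followed in mouse liver, namely the PAR-bZIP factor genes Dbp, Tef and Hlf, their competitor Nfil3, the deubiquitinase gene Usp2, the REV-ERB genes Nr1d1 and Nr1d2, the ROR gene Rora and the repressor gene Bhlhe40. Every probe set that the platform annotation assigned to exactly 1 of these 9 symbols was taken, which gave 23 of the 45037 probe sets on the array. The study compared livers of C57BL/6 mice injected intravenously with an AAV8 vector, an adeno-associated virus that transduces hepatocytes, carrying either Nfkbiz, the gene of the nuclear IκB protein IκBζ, or luciferase as the control. All animals of both groups were put on CDAHFD, a high-fat diet without choline and with a defined amino acid content that serves as a model of nonalcoholic fatty liver disease, 4 weeks after the injection and were sampled after 4 weeks of it, with the blood flushed out by perfusion. Each group had 3 arrays, from separate liver samples per the labels, and no chow-fed or uninjected group was analysed here. The sources used here state no age, sex, hour of sampling or vector promoter.

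The circadian clock of the liver is a feedback loop in which the activators CLOCK and BMAL1 bind E-box elements, and its output passes through further DNA elements. DBP, TEF and HLF activate genes through D-box elements, and NFIL3 (also called E4BP4) binds the same elements and represses. RORα activates and REV-ERBα and REV-ERBβ repress through ROR response elements (ROREs), which stand in the genes of BMAL1, CLOCK and NFIL3 among others. Transcripts of Dbp and Nr1d1 are known for daily rhythms of large amplitude in liver, so that their level in a single sample depends on the hour at which it was taken.

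To show which of these elements lie next to the genes, the 250 bases before each annotated start were searched on both strands for the E-box CACGTG, the related E'-box CACGTT, the D-box as TTATGTAA or TTACGTAA, and the RORE core as TAGGTCA or TGGGTCA. No motif contains another. RefSeq sequences of GRCm38.p6 were found for 8 of the 9 genes, with 9 starts in all, and Bhlhe40 had no entry. Both annotated starts of Tef had an E-box, Nfil3 had a RORE core and Nr1d1 had an E'-box. The windows of Dbp, Hlf, Usp2, Nr1d2 and Rora held none of these letters. Bases farther before the start and all bases after it were not searched, so an empty window does not mean a gene without the element. Of 32851 windows of the same length in the table, 6.02% held the E-box, 3.85% the E'-box, 0.931% the D-box and 5.38% the RORE core. The windows of Tef, where a member of the activating family and an E-box meet, and of Nfil3, the only member with a positive difference on the arrays, are shown 5′ to 3′ in the direction of transcription, with the matched letters in capitals. The first Tef window (chr15:81802423-81802672, plus strand) has its E-box beginning 127 bases before the start, the second (chr15:81811164-81811413, plus strand) 138 bases before it, and the Nfil3 window (chr13:52981040-52981289, minus strand) has the core in reverse, as TGACCTA, 12 bases before the start.
Tef, first start: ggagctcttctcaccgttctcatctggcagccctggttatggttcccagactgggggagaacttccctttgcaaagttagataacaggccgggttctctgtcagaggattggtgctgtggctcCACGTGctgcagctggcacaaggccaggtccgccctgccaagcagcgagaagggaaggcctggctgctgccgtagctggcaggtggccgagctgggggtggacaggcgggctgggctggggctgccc
Tef, second start: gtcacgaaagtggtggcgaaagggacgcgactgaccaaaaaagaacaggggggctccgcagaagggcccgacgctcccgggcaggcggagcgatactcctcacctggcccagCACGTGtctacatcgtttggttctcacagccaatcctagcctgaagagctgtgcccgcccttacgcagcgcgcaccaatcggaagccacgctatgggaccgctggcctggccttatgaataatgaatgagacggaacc
Nfil3: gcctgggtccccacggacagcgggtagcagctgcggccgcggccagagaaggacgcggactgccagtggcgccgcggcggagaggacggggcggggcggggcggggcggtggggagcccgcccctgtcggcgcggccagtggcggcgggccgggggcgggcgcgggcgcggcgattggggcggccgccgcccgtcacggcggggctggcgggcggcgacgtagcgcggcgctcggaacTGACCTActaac

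The values are MAS5 intensities, a measure of how brightly the probes of a probe set bound labelled RNA, scaled by the authors to 1 level per array. Averaged over the middle 96% of probe sets, intensity was 495.2 to 496.3 per array, and medians were between 78.2 and 95.2. The third luciferase array stood apart from the others, at 76.1 on the second principal component of the tested probe sets against -22.8 to -8.47. Differences of the members and of the named clock and target genes that it moved by over 1.5 times are given with and without it. Probe set 1448728_a_at of Nfkbiz read 221, 230 and 180 in the luciferase livers and 4424, 4073 and 2006 in the Nfkbiz livers (log2 difference 3.98 ± 0.27 SE, limma adjusted p = 0.0009). Its other probe sets had log2 differences of 0.30 and -0.89, and neither passed. The hepatocyte markers Alb, Ttr and Apoa1 had mean intensities of 42878, 44008 and 57958 in the luciferase livers. Of 7 hepatocyte markers, 0 was past the threshold, and 5 differences were positive and 2 negative. At an unadjusted limma p below 0.05, where 12% of all genes tested lay, was 1, Hnf4a. Its mean was 9480 in the luciferase and 7491 in the Nfkbiz livers (log2 difference -0.35 ± 0.14 SE). In bulk tissue, fewer cells of a type and less RNA per cell cannot be told apart.

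Of the 23 probe sets, 22 had a mean above the intensity filter of 47.4 and were tested, and 1 of the 22 passed, probe set 1417168_a_at of Usp2, which was lower in the Nfkbiz livers. Over all 27022 probe sets tested, 0.0518% were lower and 0.0185% higher at an adjusted p below 0.05. No overlap between the groups was seen for 11 of the 22 with lower values in the Nfkbiz livers, where 9.69% of all probe sets tested behaved so, and for 1 with higher values, where the share was 7.03%. At an unadjusted limma p below 0.05, 11 of the 22 were lower (6.47% of all) and 1 was higher (4.14% of all). The median log2 difference was -0.51 over the 22 and -0.02 over all probe sets tested, and 21 of the 22 differences were negative, against 53.0% of all. The 22 are readings of only 9 genes, with 8 from Rora, and the members were chosen with earlier results of these data known. Without the first luciferase array the median of the 22 was -0.37, and without the third it was -0.62. With 1 probe set per gene, the brightest, 1 of 9 genes passed, again Usp2, where 0.158% of 13312 genes were lower and 0.0676% higher past the threshold. The brightest probe sets of 6 of the 9 genes were lower in the Nfkbiz livers without overlap (10% of all genes tested), and 1 was higher without overlap (8% of all).

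**Figure D1:**
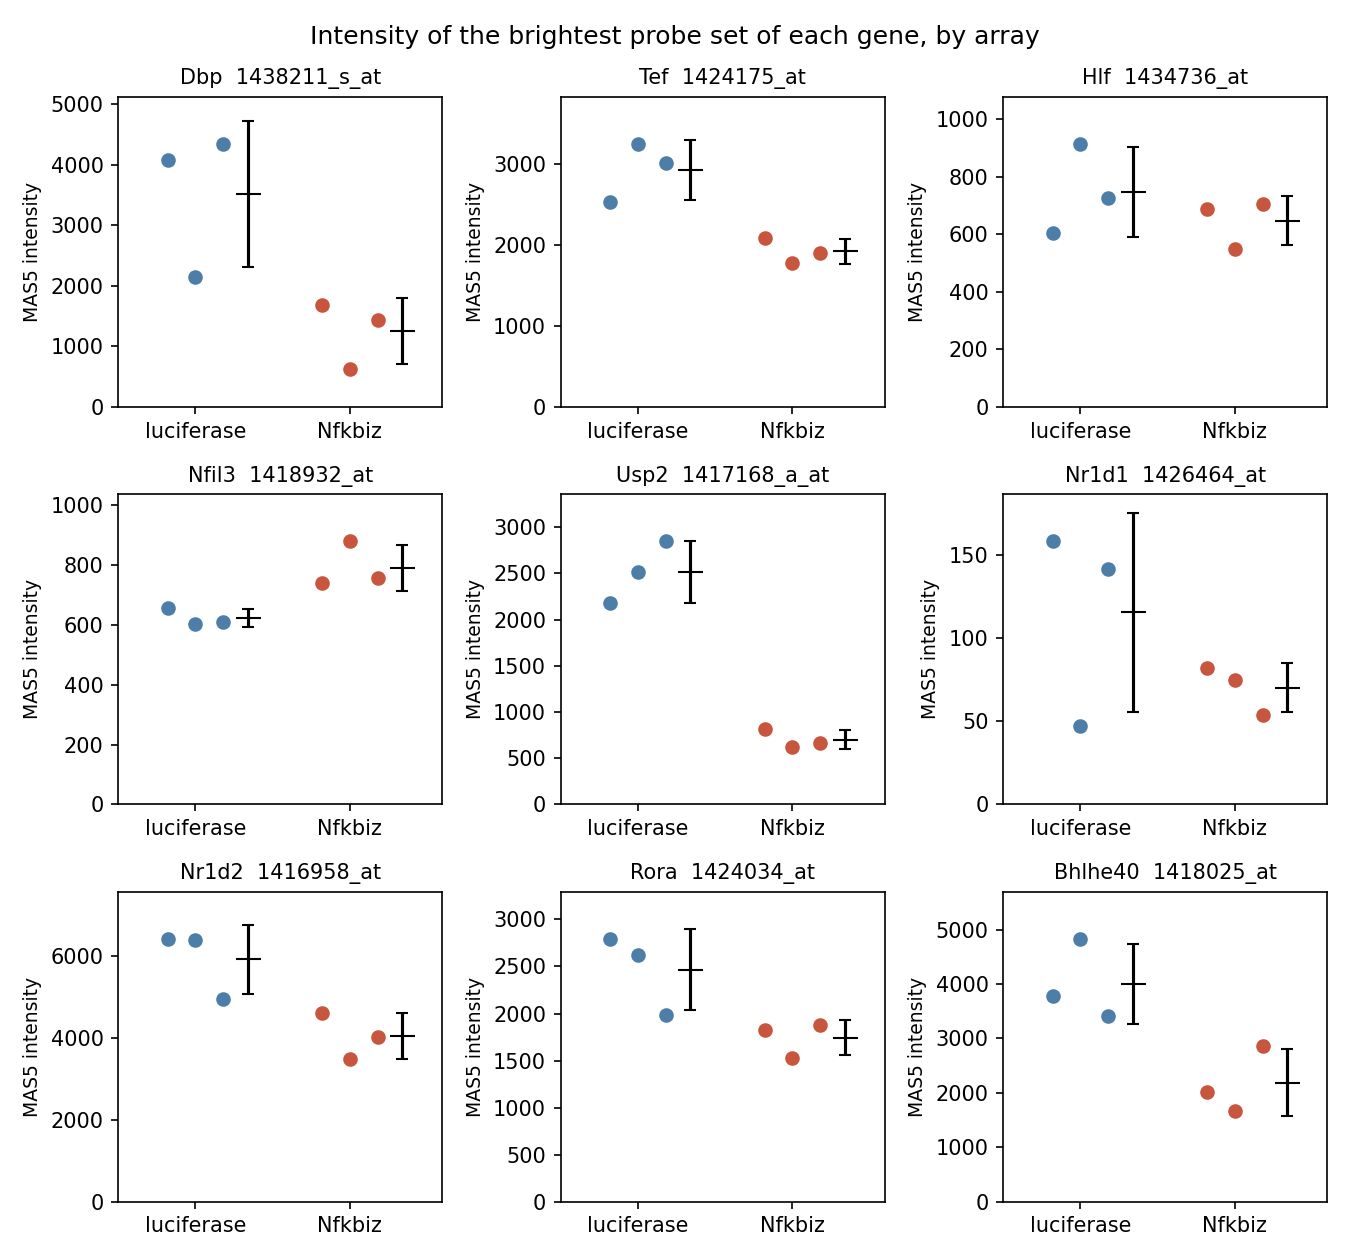
MAS5 intensity (vertical axes, linear, from 0) of the brightest probe set of each of the 9 genes on the 3 luciferase arrays (blue) and the 3 Nfkbiz arrays (red), with the group mean and SD in black. The groups are apart for Dbp, Tef, Usp2, Nr1d2, Rora and Bhlhe40, all lower in the Nfkbiz group, and for Nfil3, higher there, while Hlf and Nr1d1 overlap.

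Usp2 was the 1 gene of the 9 that changed past the threshold. It encodes a ubiquitin-specific protease, with isoforms reported to deubiquitinate clock proteins, and its liver transcript is a well-known output of the oscillator. Probe set 1417168_a_at, which by its suffix reads several transcripts of the gene, gave 2183, 2518 and 2846 in the luciferase livers and 815, 618 and 665 in the Nfkbiz livers. Every Nfkbiz array was thus under every luciferase array by a wide margin. The group means were 2516 ± 332 and 699 ± 103 (SD, n = 3), a 3.60-fold difference (log2 difference -1.85 ± 0.16 SE, 95% interval -2.21 to -1.49, limma adjusted p = 0.00369), with the third smallest p of all probe sets tested. It passed with each array left out in turn, at adjusted p-values up to 0.0353, and did not pass with a variance prior that ignores intensity (adjusted p = 0.118). The hour of sampling is not stated, so that for rhythmic transcripts such as these, Usp2 and the Per1 call given further on included, an effect of the vector and a difference in hour between the groups cannot be told apart.

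The other Usp2 probe set, 1417169_at, had the same direction and a smaller difference. It read 1976, 1613 and 1868 in the luciferase livers and 724, 558 and 995 in the Nfkbiz livers, again without overlap (log2 difference -1.30 ± 0.21 SE, limma adjusted p = 0.0636). It missed the threshold with all arrays and passed in 1 of 6 fits that left out an array. That fit was without the third Nfkbiz array, the highest of its group (log2 difference -1.51, limma adjusted p = 0.0323). Without the second Nfkbiz array the difference was -1.09 (limma adjusted p = 0.186). The annotation gives the same EST for both probe sets, so that they are not independent readings of the gene.

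Dbp, the D-box activator with the steepest known rhythm of its family, had the next largest difference among the brightest probe sets and did not pass. Its brightest probe set 1438211_s_at read 4069, 2140 and 4343 in the luciferase livers and 1682, 632 and 1439.5 on the Nfkbiz arrays. The luciferase values spread over a wide range, with the second array near the highest Nfkbiz value, yet the groups did not overlap. The means were 3517 ± 1201 and 1251 ± 550.0 (SD, n = 3), a 2.91-fold difference (log2 difference -1.54 ± 0.36 SE, 95% interval -2.35 to -0.73, limma adjusted p = 0.21). The suffix of this probe set marks probes that can also match other genes. The gene-specific probe set 1418174_at read 2379, 1286 and 1801 against 1094, 389 and 904 (log2 difference -1.28 ± 0.35 SE, limma adjusted p = 0.267). On both probe sets the second array was the lowest of its group, in either group, and without the second Nfkbiz array the difference on 1418174_at was -0.83.

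Tef, whose protein also activates through the D-box and whose transcript has a flatter rhythm, gave a smaller difference with less spread. Probe set 1424175_at read 2527, 3251 and 3019 in the luciferase livers and 2084, 1775 and 1903 in the Nfkbiz livers, with no overlap (log2 difference -0.61 ± 0.14 SE, limma adjusted p = 0.2). Probe set 1450184_s_at read 465, 512 and 511 against 255, 376 and 367, also without overlap (-0.59 ± 0.20 SE, limma adjusted p = 0.344). Its suffix marks probes that can also match other genes. The dim probe set 1438033_at, at 108, 107 and 56.7 against 49.8, 58.5 and 74.9, overlapped between the groups (-0.53 ± 0.41 SE, and -0.84 without the third luciferase array). All 3 Tef probe sets thus had differences between -0.61 and -0.53, and none passed. Which of the Tef starts the transcripts read by each probe set came from was not analysed here.

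For Hlf, the third activator of the family, the groups overlapped on both probe sets. Probe set 1434736_at read 604, 915 and 726 in the luciferase livers and 689.5, 549 and 706 on the Nfkbiz arrays (log2 difference -0.20 ± 0.19 SE, 95% interval -0.62 to 0.23). Probe set 1434735_at read 603, 721 and 614 against 653, 542 and 591 (-0.12 ± 0.16 SE, 95% interval -0.47 to 0.24). The first interval includes the difference of -0.61 measured for Tef 1424175_at, and the second does not.

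Nfil3, the repressor on the same D-box, was the 1 member with a positive difference. It read 655, 602 and 611 in the luciferase livers and 738, 879 and 755 in the Nfkbiz livers. All 3 Nfkbiz arrays lay above all luciferase arrays, with means of 623 ± 28.8 and 791 ± 76.5 (SD, n = 3). The log2 difference was 0.34 ± 0.15 SE (95% interval 0.01 to 0.67), and it did not pass (limma adjusted p = 0.455). The unadjusted limma p was 0.0439 with all arrays and above 0.05 with any 1 array left out. It was then between 0.0574, without the first Nfkbiz array, and 0.137, without the second.

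Differences between these D-box factors were compared over their 6 pairs, through the log2 ratio of their brightest probe sets on each array. The log2 difference of Dbp was lower than that of Nfil3 (by -1.88 ± 0.60 SE), and so was that of Tef, by a narrower margin (-0.95 ± 0.20 SE), with no overlap between the groups in either ratio. The Tef-to-Hlf ratio was also lower on all Nfkbiz arrays than on all luciferase arrays (-0.41 ± 0.11 SE). Each of these 3 pairs had an exact two-sided permutation p of 0.1, the smallest that 3 arrays against 3 allow, and 0.2 after Benjamini-Hochberg adjustment over the 6 pairs. The ratios of Dbp to Tef (-0.94 ± 0.56 SE), Dbp to Hlf (-1.35 ± 0.58 SE) and Hlf to Nfil3 (-0.54 ± 0.28 SE) overlapped between the groups, with exact permutation p-values of 0.3, 0.2 and 0.3. With this test none of the 6 pairs could have passed the threshold, so it makes no call on them.

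**Figure D2:**
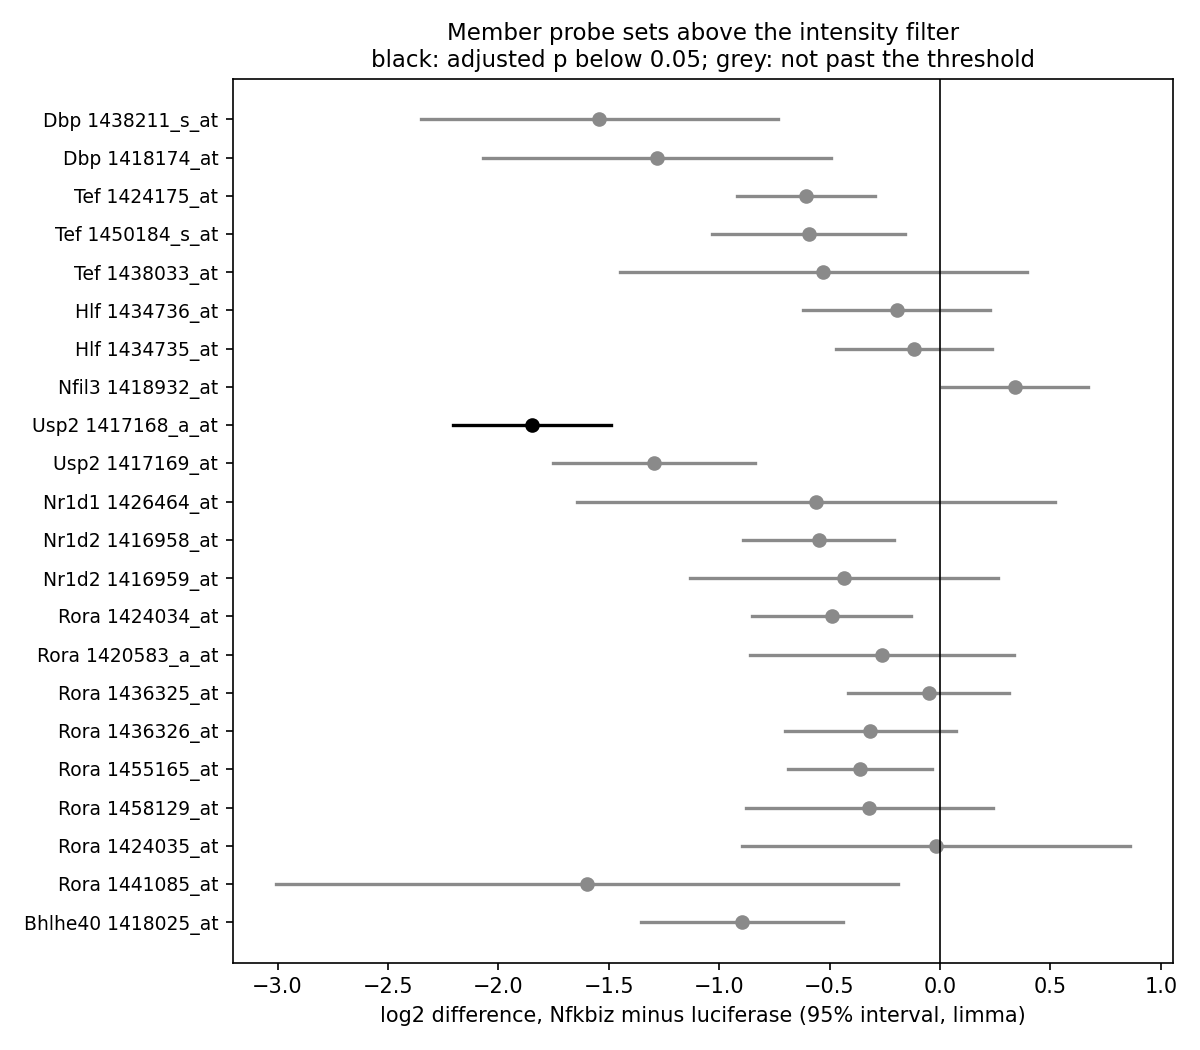
Log2 difference, Nfkbiz minus luciferase, with its 95% limma interval, for the 22 probe sets of the 9 genes that were above the intensity filter. Usp2 1417168_a_at at -1.85 is the 1 probe set past the threshold (black), Nfil3 at 0.34 is the 1 with a positive value, and the Rora probe sets range from -1.60 to -0.02.

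Among the nuclear receptor genes, Nr1d2, which encodes REV-ERBβ, was read well and Nr1d1, which encodes REV-ERBα, poorly. Nr1d2 probe set 1416958_at read 6409, 6378 and 4947 in the luciferase livers and 4608, 3476 and 4025 in the Nfkbiz livers, with no overlap and a narrow gap between the third luciferase and the first Nfkbiz array. The log2 difference was -0.55 ± 0.15 SE (limma adjusted p = 0.267), and -0.67 without the third luciferase array (adjusted p = 0.115). Without the second Nfkbiz array it was -0.45 (limma adjusted p = 0.595). The dimmer probe set 1416959_at read 331, 434 and 185 against 282, 186 and 204, where the third luciferase array was the lowest of all 6 (-0.44 ± 0.31 SE with all arrays and -0.78 without that array, but -0.17 without the second luciferase array, none past the threshold). The only probe set of Nr1d1, 1426464_at, read 158, 47.3 and 141 in the luciferase livers and 82.2, 74.6 and 53.7 on the Nfkbiz arrays. The second luciferase array was the lowest of all 6, at the intensity of the filter, and the groups overlapped (log2 difference -0.56 ± 0.49 SE, 95% interval -1.64 to 0.52). Leaving out that array gave -1.11, leaving out the first luciferase array -0.24 and leaving out the third -0.32, so the value for Nr1d1 rests on single arrays.

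Rora, the gene of the activator RORα, had 9 probe sets, of which 8 were tested. All 8 differences were negative, with a median of -0.32, and 0 passed limma's test over all probe sets. At an unadjusted limma p below 0.05, 3 of the 8 were lower (6.47% of all probe sets tested). The same 3 were lower without overlap between the groups (9.69% of all). The brightest, 1424034_at, read 2793, 2624 and 1983 in the luciferase livers and 1825, 1529 and 1875 in the Nfkbiz livers (log2 difference -0.49 ± 0.16 SE, limma adjusted p = 0.345, and -0.64 without the third luciferase array). Probe set 1455165_at read 963, 847 and 817 against 652, 665 and 723 (-0.36 ± 0.15 SE). The dim 1441085_at read 85.6, 131 and 99.9 against 74.2, 12.5 and 43.4, and 2 of its Nfkbiz readings lay under the intensity of the filter. Its difference of -1.60 ± 0.63 SE became -0.87 without the second Nfkbiz array and -0.78 with a pseudocount of 50.

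The other Rora probe sets overlapped between the groups. Probe set 1436325_at read 1322, 1315 and 1429 against 1440.2, 1041 and 1488, a difference of -0.05 ± 0.16 SE (95% interval -0.41 to 0.31) that turned to 0.11 without the second Nfkbiz array and to -0.01 without the third luciferase array. Its neighbour from the same EST, 1436326_at, read 1466, 1249 and 1259 against 1135, 839 and 1255 (-0.32 ± 0.17 SE, and -0.15 without the second Nfkbiz array). Probe set 1420583_a_at read 1916, 2032 and 902 against 1316, 1238 and 1252. The third luciferase array was below the Nfkbiz arrays there and the other two luciferase arrays were above them, so that the difference was -0.26 ± 0.27 SE with it and -0.64 without it (adjusted p = 0.0955). Without the first or the second luciferase array it was -0.09 or -0.05. Probe set 1424035_at, at 220.4, 295 and 88.3 against 194, 184 and 155, went from -0.02 ± 0.40 SE to -0.53 in the same way, and 1458129_at, at 416, 368 and 219 against 259.5, 278 and 238, from -0.32 ± 0.25 SE to -0.60. Without the second luciferase array the former became 0.34, and without the first the latter became -0.14. In all, the third luciferase array was the lowest of its group on 5 of the 8 Rora probe sets. The untested probe set 1458145_at read 43.0, 15.2 and 15.0 against 43.8, 14.0 and 13.2.

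Bhlhe40, also called Dec1, encodes an E-box-binding repressor of CLOCK-BMAL1 that also answers to hypoxia and nutrients. Its single probe set 1418025_at read 3777, 4829 and 3418 in the luciferase livers and 2012, 1674 and 2870 in the Nfkbiz livers, without overlap. The means were 4008 ± 733 and 2186 ± 617 (SD, n = 3), a 1.86-fold difference (log2 difference -0.90 ± 0.21 SE, 95% interval -1.35 to -0.44, limma adjusted p = 0.198). Without the third Nfkbiz array, the closest to the luciferase values, the difference was -1.11, and without the second Nfkbiz array it was -0.72. Neither of these passed.

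**Figure D3:**
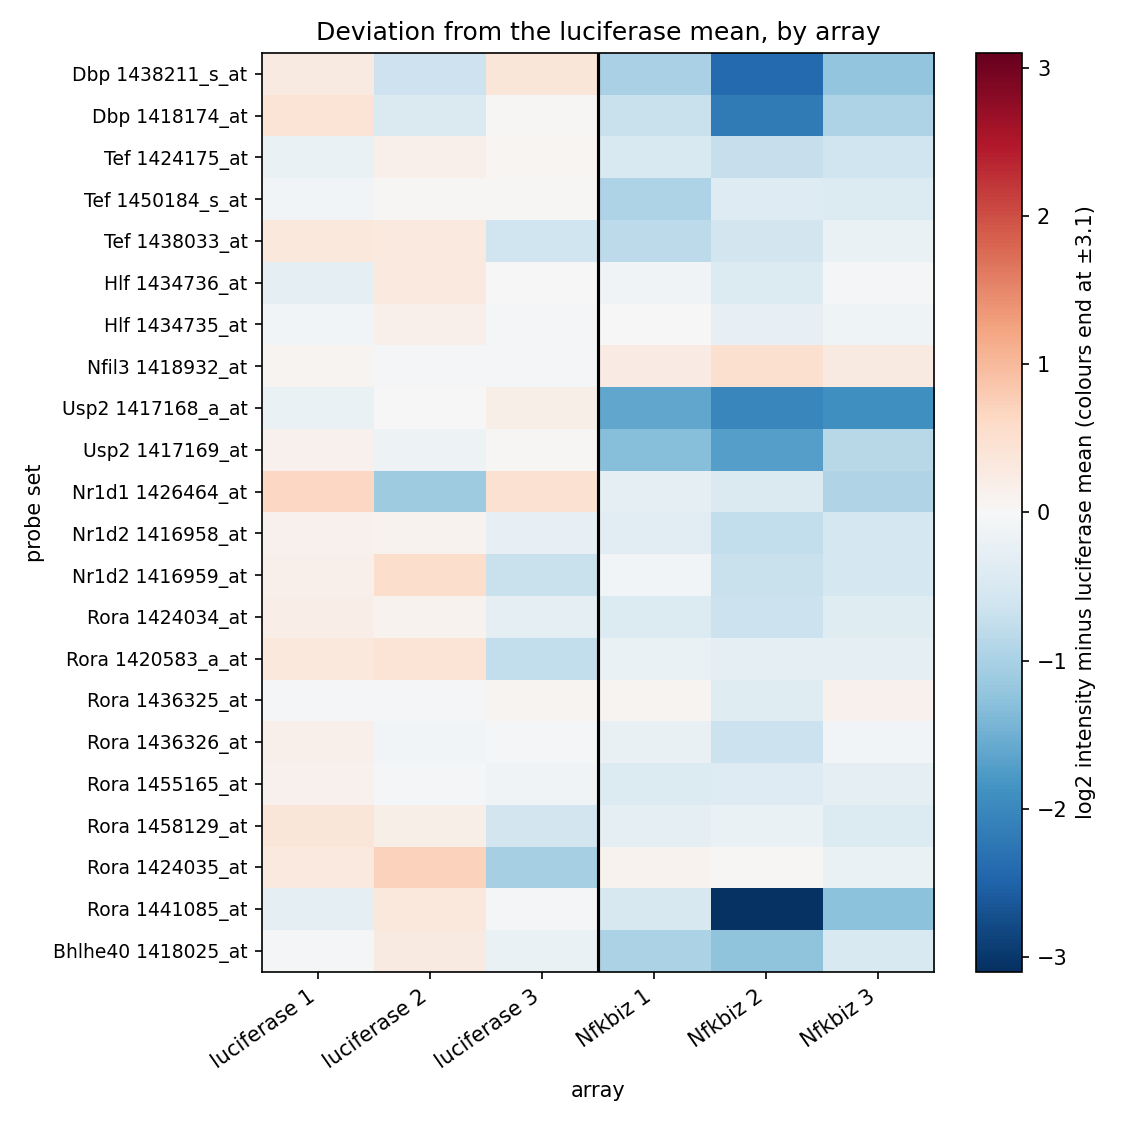
Log2 intensity minus the mean of the luciferase arrays for the 22 tested probe sets (rows) on each of the 6 arrays (columns), blue for lower and red for higher. The second Nfkbiz array holds the darkest blue cells, in Dbp, Usp2 and Rora 1441085_at, the Nfil3 row is red on all 3 Nfkbiz arrays, and the third luciferase array is blue in several Rora and Nr1d2 rows.

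Most member probe sets had the same lowest array in the Nfkbiz group, and not in the luciferase group. Among the Nfkbiz arrays the second was the lowest on 15 of the 22 probe sets and the highest on 3. It also had the lowest median intensity of all 6 arrays, at 78.2. The order was not counted over all probe sets tested, so 15 of 22 is not a result about the members. Among the luciferase arrays the lowest place was spread over the first (6 probe sets), the second (7) and the third (9). Leaving out the second Nfkbiz array moved the difference of Dbp 1438211_s_at to -1.11 and that of Usp2 1417168_a_at to -1.76, a smaller shift for Usp2 than for Dbp. The part of overall array brightness in this order was not tested.

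The core loop genes of the oscillator were read on the same arrays. Of 15 listed, 13 had a probe set with 1 symbol and 11 were tested as genes, of which 1 passed as lower, Per1, and 0 as higher. Of the 11, 8 had negative and 3 positive differences, with a median of -0.39 against -0.02 over all genes tested, and 7 had an unadjusted limma p below 0.05 (12% of all genes tested). The repressor gene Per1 had a difference of -1.36 ± 0.20 SE (limma adjusted p = 0.0329, which it kept in 1 of 6 fits that left out an array and lost in 5, with adjusted p-values up to 0.123), and Per2, its paralog, of -0.92 ± 0.19 SE (limma adjusted p = 0.122). Ciart and Per3, further repressor genes of the loop named after their values were seen, had differences of -3.22 ± 0.55 SE and -0.84 ± 0.22 SE, both without overlap between the groups (limma adjusted p = 0.0587 and 0.183). Ciart passed with a pseudocount of 50 (adjusted p = 0.0198), after median centring (0.0355) and, just under 0.05, without the second Nfkbiz array, and not in the other fits. Arntl, the gene of BMAL1, had an opposite sign, at 134, 394 and 209 in the luciferase livers and 292, 545 and 245 in the Nfkbiz livers (log2 difference 0.61 ± 0.40 SE), as had Clock (0.65 ± 0.22 SE, and 0.41 if the third luciferase array was left out) and the repressor gene Cry1 (0.26 ± 0.23 SE), none of which passed. The Arntl difference ranged from 0.24 when the first luciferase array was left out to 1.02 when the second was, and the Cry1 difference from 0.08 to 0.55 with 1 array left out. In each group the second array, the lowest for Dbp and Per2, was the highest for Arntl. Per1 was instead lowest on the first luciferase array and highest on the second Nfkbiz array. Nr1d1 was lowest on the second luciferase and the third Nfkbiz array. These are orders among 3 arrays and no test was made of them.

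Genes reported elsewhere as targets of the members were examined next. Of 9 genes listed as targets of the PAR-bZIP factors, 6 had a probe set with 1 symbol and were tested, and 0 passed limma's test over all genes. The median was 0.06, and 2 had an unadjusted limma p below 0.05 (12% of all genes tested). These 2 had opposite signs. Alas1, the first enzyme of heme synthesis, read 12029, 18535 and 18019 in the luciferase livers and 10881, 5921 and 11077 in the Nfkbiz livers (log2 difference -0.83 ± 0.25 SE, limma adjusted p = 0.234), and the second Nfkbiz array was again the lowest, without which the difference was -0.53. Cyp7a1, the rate-limiting enzyme of bile acid synthesis, read 1516, 2868 and 6679 against 8071, 8263 and 8499.5 (1.43 ± 0.40 SE, limma adjusted p = 0.21), and passed without the third luciferase array (1.99, adjusted p = 0.0144), while without the first the difference was 0.92 and did not pass. The abundant Cyp3a11 had a difference of 0.07 ± 0.13 SE.

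Of 11 genes listed as targets of REV-ERB and ROR proteins, which include Arntl, Clock and Cry1, 9 were tested. Of these 9, 8 had a positive difference, and the median of the 9 was 0.39, against -0.02 over all genes tested. Arntl, Clock and Cry1 are among the 8, and were already counted as positive in the core loop. Of the 9, 0 passed and 3 had an unadjusted limma p below 0.05 (12% of all genes tested). Cyp7b1, an oxysterol hydroxylase gene reported as a RORα target, read 3240.4, 5015 and 4158 in the luciferase livers and 11236, 6675 and 6639 in the Nfkbiz livers, without overlap (log2 difference 0.96 ± 0.22 SE, limma adjusted p = 0.158). Insig2, an ER anchor of the SREBP pathway reported as a REV-ERBα target, had a difference of 0.32 ± 0.14 SE (limma adjusted p = 0.383).

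**Figure D4:**
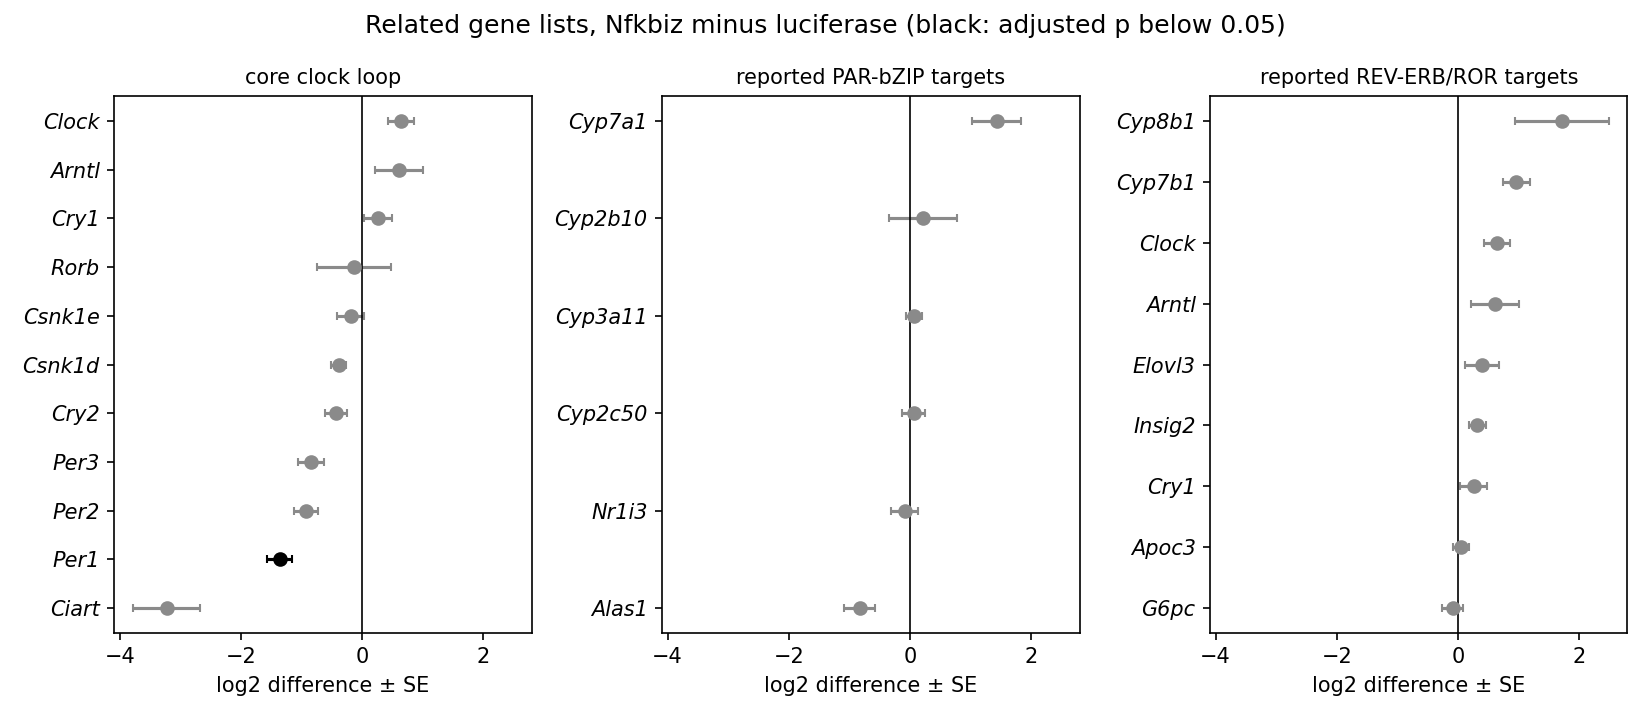
Gene-level log2 difference ± SE, Nfkbiz minus luciferase, for the tested genes of the core clock loop, the reported PAR-bZIP targets and the reported REV-ERB/ROR targets. Per1 at -1.36 is the 1 gene past the threshold (black), and Arntl, Clock and Cry1 stand in both the first and the third panel, to the right of 0.

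Markers of other liver cells were summed on each array beside these results. The summed intensity of 8 macrophage and Kupffer cell markers was 24892 to 32174 on the luciferase and 34261 to 46285 on the Nfkbiz arrays, without overlap. Of the 8, 0 passed limma's test and 7 had an unadjusted p below 0.05, where 12% of all genes tested lay. The difference of Csf1r was -0.05 ± 0.12 SE, the only negative one of the 8. The sum of 7 hepatocyte markers overlapped, at 249658 to 291182 and 251315 to 293701, as did those of 5 stellate cell, 5 endothelial and 4 cholangiocyte markers, with 0 markers past the threshold. At an unadjusted limma p below 0.05 were 1 hepatocyte, 2 stellate cell, 1 endothelial and 1 cholangiocyte marker. Of the 5 stellate cell differences 4 were negative, and all 5 endothelial ones were positive. Of the 5 genes listed for T and NK cells, which include Ptprc, a gene of leukocytes at large, 3 had positive and 2 negative differences. Gzma passed as higher (1.77 ± 0.28 SE, limma adjusted p = 0.0427) and did so in 0 of 6 fits that left out an array. Nkg7 was also higher (0.73 ± 0.32 SE) and did not pass, while Cd3e (-0.67 ± 0.83 SE) and Cd8a (-0.09 ± 0.32 SE) had the opposite sign. Of the 5, 2 had an unadjusted limma p below 0.05, Gzma and Nkg7. The sum of the 5, 1953 to 2222 on the luciferase and 2279 to 3376 on the Nfkbiz arrays, is mostly that of Ptprc, whose own values overlapped. The third luciferase array had the lowest endothelial sum, 3582. The part of these cell populations in the differences of the 9 genes was not tested.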

How the data were processed

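Liver RNA (100 ng per array) was labelled with biotin and read on 6 Affymetrix 3′ arrays, 3 per group, grouped by sample title. The deposited values are linear intensities computed by the authors with MAS5, per the submitters' processing notes, whose version is not given in the sources used here. Each array had been scaled to 1 target, as the values show. The number of arrays limits the precision. Names came from the platform annotation, where 34945 had 1 symbol, 932 several and 9160 were not listed. Through Entrez identifiers 34741 of the first were found in RefSeq GRCm38.p6, and 0 symbols changed.

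Log2 intensities, with no pseudocount or further normalization, were fitted with limma 3.58.1 (R 4.3.3, lmFit, and eBayes with a trend on intensity) as Nfkbiz minus luciferase, over the 27022 probe sets left after removing the lowest 40% by mean. Related lists used 13312 genes, each by its brightest probe set. Two-sided p-values were adjusted by the Benjamini-Hochberg method over all features and a threshold of 0.05. Errors of intensities are SD, errors of log2 differences moderated SE, and errors of the pair ratios unmoderated SE. The labels name separate samples only, so p-values measure only their spread, which may be technical. Each of 20 simulated data sets had 200 changed among 27022 probe sets. The fit recovered 22.8% of log2 changes of 1 and 61.9% of log2 changes of 2, and 3.25% of its calls were false. Noise was drawn independently for each probe set and array, without an outlying array, so these shares need not hold for the real arrays. Same-numbered samples of the groups did not deviate together (correlations of -0.03, 0.07 and 0.01), so the numbers were not taken as pairs.

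The members, lists and motifs were chosen with earlier results of these data known, and the pair comparisons within the D-box family were added after the values were seen. All probe sets of the members are given. Of each related list the text names those past the threshold, otherwise up to 3 with the smallest unadjusted p, and in any case Arntl, Clock, Cry1, Per1 and Per2, and, outside this rule, Ciart and Per3. Markers were used for description. Alternatives were other filters, normalizations, a pseudocount, a variance prior without trend, a replicate block, 1 probe set per gene and leaving out each array. Figures were drawn with matplotlib 3.10.9.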

Additional observations from a re-analysis of the deposited data

How the results depend on the processing

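The count of member probe sets past the threshold was 1 with no filter or a filter at the lowest 20%, after quantile, cyclic loess or median normalization and with 1 probe set per gene, in each case Usp2 1417168_a_at. It was 2 with a pseudocount of 50, where Usp2 1417169_at joined and the member median was -0.38, and 0 with a variance prior without the intensity trend, which called 0 of 27022 probe sets (2429 at an unadjusted limma p below 0.05). Leaving out 1 array gave between 1 and 2 member probe sets, between 8 and 33 probe sets in all against 19, and a member median between -0.62 and -0.37. The pseudocount gave 38 and the gene-level fit 30 in all. With the replicate block, although the numbers were not found to pair the samples, 2 member probe sets passed, Usp2 1417168_a_at and Dbp 1438211_s_at (adjusted p = 0.0138), and 28 in all. Among differences that passed nowhere, that of Rora 1424035_at became 0.038 after quantile normalization, 0.041 after loess normalization and 0.015 after median centring, and lay between -0.53 and 0.34 with 1 array left out. Rora 1436325_at lay between -0.15 and 0.11 and Cyp3a11 between -0.016 and 0.13 with 1 array left out, and Cyp3a11 became -0.0029 after quantile and -0.058 after loess normalization. Per1 lost its call without the filter (adjusted p = 0.0595), after quantile, loess and median normalization (0.0599, 0.0597 and 0.0671) and without the trend (0.291). Gzma lost its call without the filter (0.0841), without the trend (0.312) and in 6 of 6 fits with 1 array left out, at adjusted p-values up to 0.201. The causes were not tested. Intensities near the filter, as for Nr1d1 and Rora 1441085_at, limit what these arrays show of those genes.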
